A study of Mus musculus with 8 samples.

Results

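The TOX HMG-box family of the mouse is described here in embryonic amygdala neurons that lack or retain Tshz1 function. Its members Tox, Tox2, Tox3 and Tox4 were taken by name, 4 of the 32543 genes in the deposited matrices, and all 4 passed the filter on low counts. The family was chosen by the contrast of knockout with control in these same libraries, in which Tox was among the few genes called, so the difference in Tox is given as a description and its call supports nothing further. The other 3 members entered as paralogs of Tox.

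The libraries were made from GFP-positive cells sorted from pooled, dissociated amygdala of E16.5 embryos on an outbred background. Knockout pools carried the GFP allele of Tshz1 over the RA allele (Tshz1 GFP/RA), and control pools carried the GFP allele over a wild-type allele (Tshz1 GFP/+), with 4 libraries of each genotype. Every library therefore came from embryos with at least 1 GFP allele of Tshz1, and no pool came from embryos with 2 wild-type alleles. The labels do not describe either mutant allele further. The labels name the cells amygdala intercalated cells, which are clusters of GABAergic neurons around the basolateral amygdala. NX, NY, QT and RM open the sample titles, each in 1 knockout and 1 control library, and the labels leave their meaning unstated.

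TOX proteins bind DNA through 1 HMG box, a fold that grips and bends the minor groove. In mice TOX is best known for its role in T cell development, and it is also present in neural progenitors of the embryonic cortex. TOX3 has been described in neurons as a partner of CREB in calcium-dependent transcription. TOX4 is a subunit of a nuclear protein phosphatase complex, PTW/PP1, together with PPP1R10 and WDR82.

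The stretch of coding sequence in which the 4 genes are most alike is shown first, because it bears on whether reads of one can be counted for another. Where this stretch lies relative to the HMG box was not examined. It is the window of 120 coding bases of Tox with the most matching bases in the other 3 genes, aligned without gaps, in the transcript with the longest coding sequence in GENCODE M21 (GRCm38). It lies within 1 exon of each gene: chr4:6722196-6722315 (minus strand, exon 5), chr2:163315845-163315964 (plus strand, exon 5), chr8:90254333-90254452 (minus strand, exon 5) and chr14:52287354-52287473 (plus strand, exon 6). Capitals mark the bases that differ from Tox.
Tox: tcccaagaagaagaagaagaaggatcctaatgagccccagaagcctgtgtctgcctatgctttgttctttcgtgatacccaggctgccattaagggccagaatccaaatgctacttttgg
Tox2: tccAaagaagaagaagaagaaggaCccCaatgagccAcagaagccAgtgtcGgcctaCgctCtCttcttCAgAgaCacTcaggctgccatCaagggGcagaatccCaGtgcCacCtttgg
Tox3: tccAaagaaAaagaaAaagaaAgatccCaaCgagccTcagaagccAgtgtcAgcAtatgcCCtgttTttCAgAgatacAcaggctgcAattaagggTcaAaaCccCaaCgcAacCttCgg
Tox4: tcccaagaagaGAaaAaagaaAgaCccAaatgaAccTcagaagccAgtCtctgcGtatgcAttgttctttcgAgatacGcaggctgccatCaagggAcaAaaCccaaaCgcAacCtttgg

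Tox2 matched Tox at 83.3% of these bases, Tox4 at 82.5% and Tox3 at 78.3%. Over the whole aligned coding sequence the identity was lower, from 64.3% between Tox3 and Tox4 to 67.9% between Tox and Tox2. The longest run of identical bases between the transcripts of 2 members was 24, between Tox and Tox3, and the other pairs shared runs of 14 to 20. Expected counts of Tox2 and Tox3 were whole in all 8 libraries and those of Tox lay within 0.22 of a whole number, while those of Tox4 were fractional in all 8. A read pair that RSEM shares among several places usually leaves a fraction, and which places shared reads with Tox4 was not tested.

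The genes lie on 4 chromosomes of GRCm38 and all are protein-coding. Tox is the longest, with 305205 bases (chromosome 4, 6686353 to 6991557, minus strand), and Tox4 the shortest, with 17256 (chromosome 14, 52279146 to 52296401, plus strand). Tox2 occupies chromosome 2 from 163203125 to 163324170 (plus strand) and Tox3 chromosome 8 from 90247040 to 90348343 (minus strand). The antisense model Gm11802 covers 260 exonic bases of Tox. Exons of Mettl3 and Rab2b on the other strand cover 933 and 195 exonic bases of Tox4. The kit named in the labels does not mark strand, so strand cannot assign reads over these bases to 1 of the 2 genes. Mettl3 and Rab2b have rows in the deposited matrices, whereas Gm11802 has none.

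Libraries held 6384571 to 13295690 expected counts in the knockout and 5785612 to 14535867 in the control. Of the 14157 genes tested, 5 were called (adjusted p under 0.05, quasi-likelihood test of edgeR). The disrupted gene Tshz1 stood at 55.9 to 121 CPM in knockout and 240.0 to 492 CPM in control libraries, without overlap. Markers of GABAergic neurons summed to between 1788 and 1952 CPM in knockout libraries and between 1626 and 2470 CPM in control libraries. All 8 markers of intercalated cells were detected, and without Tshz1 itself the other 7 summed to 1310 to 2016 CPM in knockout and 1581 to 2785 CPM in control libraries. The sum of these 7 was lower in the knockout in NX, NY and RM and higher in QT. Most of it was Meis2, with 1236 ± 265 CPM in knockout and 1458 ± 315 CPM in control libraries. Of the 7, 6 were fitted lower and 0 were called, and their median log2 fold change was -0.35. Erbb4, a neuregulin receptor with the smallest p of the 7, had 74.4 ± 23.3 CPM in knockout and 128.6 ± 24.3 CPM in control libraries (log2 fold change -0.79, SE 0.25). For Drd1, a dopamine receptor, and Foxp2, a forkhead factor, both named after their values were seen, it was -1.57 (SE 0.54) and -0.77 (SE 0.41). The 1 marker fitted higher was Sp8, with 36.2 ± 8.37 CPM in knockout and 26.0 ± 13.2 CPM in control libraries (0.47, SE 0.36). Pax6 was nearly level (-0.04, SE 0.34), and both were likewise named after their values were seen. The part of these 7 markers in the differences of the TOX genes was not tested. In sorted pools, fewer cells of a type and less RNA per cell cannot be told apart.

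Tox, the founding member, was lower in every knockout library than in every control library. In CPM (counts scaled to a common library total with TMM factors) it stood at 18.4 (NX), 18.5 (NY), 16.1 (QT) and 18.6 (RM) in the knockout. Control libraries had 51.4 (NX), 43.4 (NY), 51.3 (QT) and 44.3 CPM (RM). The 4 knockout values are nearly level and the control values form a second narrow band, with no overlap between them.

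The mean of Tox was 17.9 ± 1.18 CPM in knockout and 47.6 ± 4.31 CPM in control libraries (SD, n = 4 each), a 2.66-fold lower level. The log2 fold change was -1.41 (SE 0.21), with 95% limits of -1.86 and -0.96. Among all tested genes Tox ranked 5 by p, the last inside the threshold, where edgeR gave an adjusted p of 0.0482, the value that led to the choice of the family. The next gene, Casz1, lay just outside at an adjusted p of 0.0525. Of the 4 members 1 was called lower, where 0.0283% of all tested genes were, and 0 were called higher, where 0.00706% were. Nothing is read from that share, since the call picked the family. The call of Tox did not survive the removal of any single library, with adjusted p between 0.0995 and 0.219, while its log2 fold change stayed between -1.45 and -1.36. DESeq2, which called 0.275% of the genes, called Tox, and limma-voom, which called 0.0141%, did not (adjusted p = 0.0807).

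The spread of Tox within a genotype was small for libraries of such different depth. A small spread lowers p, so the choice of the family favoured it and nothing is read from it. Between knockout libraries the coefficient of variation was 6.62%, against an error of 8.15% from counting alone at 106 to 270 counts per library. Between control libraries it was 9.05%, against 4.61% from counting at 244 to 829 counts. Within prefixes the difference in log2 CPM, knockout minus control, was -1.47 in NX, -1.23 in NY, -1.66 in QT and -1.24 in RM. It was -1.39 among the 5 deepest libraries and -1.35 among the other 3, which hold 1 control.

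**Figure D1:**
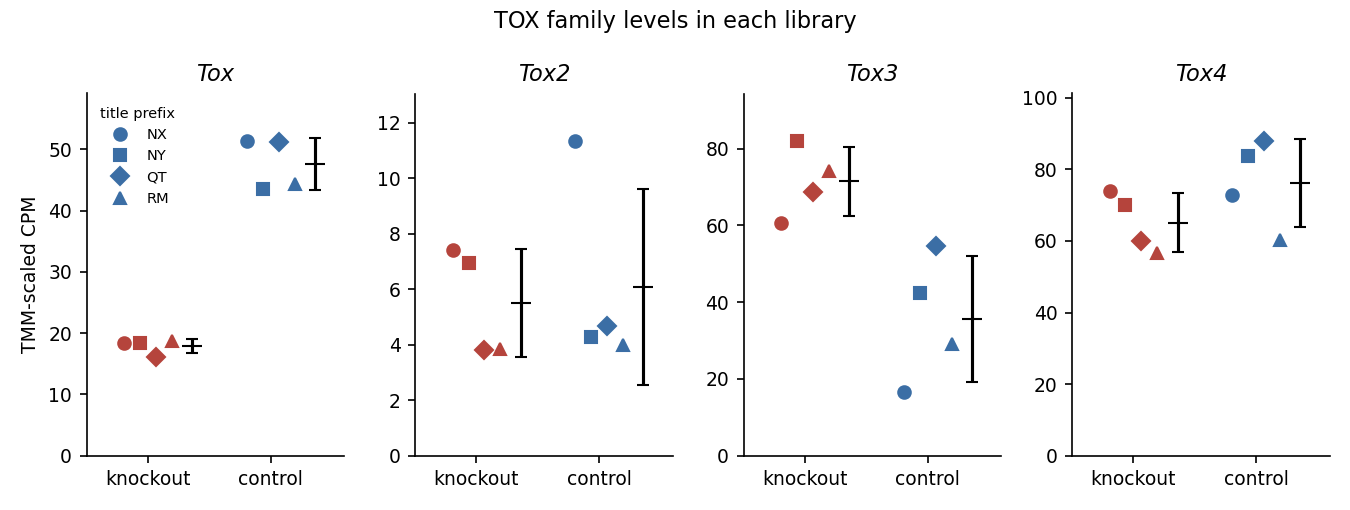
TMM-scaled CPM of Tox, Tox2, Tox3 and Tox4 in each library, knockout left and control right, with marker shapes for the title prefix and the mean with its SD (n = 4) beside each group. Tox lies at 16.1 to 18.6 CPM in the knockout and 43.4 to 51.4 in the control, and Tox3 at 60.7 to 82.1 CPM in the knockout and 16.6 to 54.6 in the control.

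Tox3, the member described with CREB in neurons, had the opposite arrangement. Knockout libraries held 60.7 (NX), 82.1 (NY), 68.8 (QT) and 74.2 CPM (RM). Control libraries held 16.6 (NX), 42.4 (NY), 54.6 (QT) and 29.1 CPM (RM). Every knockout value was above every control value, with a gap of a few CPM between knockout NX and control QT, and the control values were spread more than 3-fold.

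The mean of Tox3 was 71.5 ± 8.99 CPM in knockout and 35.7 ± 16.4 CPM in control libraries (SD, n = 4 each), a ratio of 2.00. The log2 fold change was 1.00 (SE 0.32), with 95% limits of 0.32 and 1.69. Over all genes Tox3 was not called (edgeR, unadjusted p = 0.00760, adjusted p = 1.00). Genotypes did not overlap, with the knockout higher, for 1.13% of all tested genes. For 1.46% of them they did not overlap with the knockout lower, as for Tox. The difference in log2 CPM of Tox3 was uneven between prefixes, at 1.86 in NX, 0.95 in NY, 0.33 in QT and 1.35 in RM. Without the control NX library the log2 fold change was 0.76, and without control QT it was 1.29.

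Markers of other cells also differed between libraries. The 9 cycling progenitor markers summed to 237 (NX), 1434 (NY), 1093 (QT) and 1562 CPM (RM) in the knockout, against 143, 940, 931 and 835 CPM in the control libraries of the same prefixes. The knockout sum was thus higher in 4 of 4 prefixes, and the genotypes overlapped. Single markers went both ways, with 5 of the 9 fitted higher, 4 lower and 0 called, where 0.0353% of all tested genes were. Mki67, a marker of dividing cells and named after its values were seen, had 376 ± 232 CPM in knockout and 194 ± 132 CPM in control libraries. Nes, an intermediate filament of neural progenitors and likewise named after its values were seen, had 31.0 ± 12.5 CPM in knockout and 43.9 ± 17.0 CPM in control libraries, with the knockout value below the control value in each of the 4 prefixes. The control NX library, lowest for Tox3, also had the lowest sum of the 9 markers. It was not lowest for each of them, as Nes had 15.7 CPM in knockout NX and 22.4 CPM in control NX. Pallial glutamatergic markers summed to 180 to 529 CPM in knockout libraries, against 43.5 CPM in control NX and 261 to 391 CPM in the other controls. Knockout NX had the second lowest progenitor sum of all libraries and 60.7 CPM of Tox3, more than any control. The part of these cells in the Tox3 difference was not tested.

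Tox4, the phosphatase complex subunit, overlapped between genotypes. It had 73.9 (NX), 70.1 (NY), 60.0 (QT) and 56.6 CPM (RM) in knockout libraries. Control libraries had 73.0 (NX), 83.7 (NY), 88.0 (QT) and 60.3 CPM (RM). The knockout was lower in NY, QT and RM and higher in NX.

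Tox4 averaged 65.1 ± 8.18 CPM in knockout and 76.3 ± 12.4 CPM in control libraries (SD, n = 4 each). Its log2 fold change was -0.23 (SE 0.20), with 95% limits of -0.66 and 0.21, and it was not called (edgeR, unadjusted p = 0.277, adjusted p = 1.00). The log2 fold changes of Tox and Tox3 lay outside these limits but have limits of their own, and that of Tox chose the family. Differences between members were not tested. The overlap with Mettl3 and Rab2b, which had counts of their own in all groups, was read from GENCODE M21. The annotation behind the deposited counts is not named, and any effect of the overlap on these values was not tested.

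Tox2 was the scarcest member and the least certain. Knockout libraries held 109 (NX), 84 (NY), 25 (QT) and 23 counts (RM), or 7.42, 6.96, 3.81 and 3.83 CPM. Control libraries held 183 (NX), 58 (NY), 61 (QT) and 22 counts (RM), or 11.3, 4.29, 4.67 and 3.998 CPM. Control NX lay above all other libraries, knockout NX and NY lay above the other 3 controls, and the genotypes overlapped.

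The mean of Tox2 was 5.50 ± 1.96 CPM in knockout and 6.08 ± 3.52 CPM in control libraries (SD, n = 4 each). The log2 fold change was -0.14 (SE 0.48), with 95% limits of -1.19 and 0.91 (edgeR, adjusted p = 1.00), so the limits leave room for a change of about 2-fold either way. The coefficient of variation between libraries was 35.6% in the knockout and 58.0% in the control, against 16.2% and 14.5% from counting alone. The sign was not stable: the log2 fold change was 0.36 without control NX, 0.0024 without knockout RM and -0.0017 without knockout QT.

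**Figure D2:**
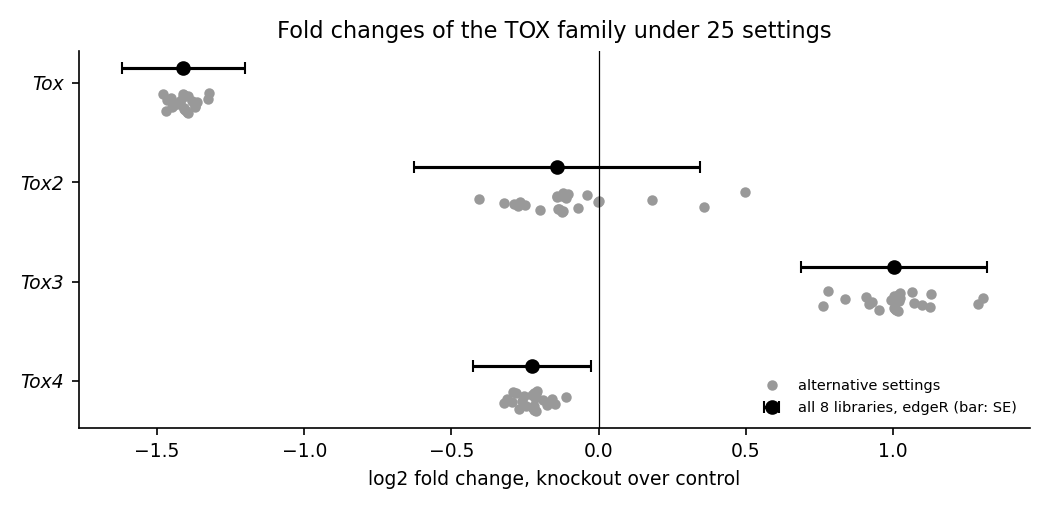
Log2 fold change of each member, knockout over control, with all 8 libraries (black, bar: SE) and under 24 alternative settings (grey). Tox lies between -1.48 and -1.32 and Tox3 between 0.76 and 1.30 under these alternatives, Tox4 between -0.32 and -0.11, and Tox2 on both sides of 0.

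Levels of different genes were compared per length, in TPM as deposited. Tox averaged 12.3 ± 3.16 TPM in knockout and 34.2 ± 7.61 TPM in control libraries. For Tox3 the means were 41.9 ± 9.21 TPM in the knockout and 21.5 ± 10.6 TPM in the control. Unlike in CPM, the genotypes overlapped for Tox3 in TPM, with 28.3 in knockout RM and 35.3 in control QT. Tox4 averaged 29.0 ± 10.2 and 34.5 ± 8.08 TPM in knockout and control libraries, and Tox2 averaged 7.14 ± 3.87 and 8.02 ± 5.72 TPM (SD, n = 4 each).

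The order of the 4 genes was the same in every knockout library, with Tox3 highest, then Tox4, Tox and Tox2. In control libraries Tox was highest in NX and RM and Tox4 in NY and QT, and these 2 neighbours in the order did not differ beyond their spread. Tox3 came below both and above Tox2 in 3 control libraries, and last in control NX, where its 11.7 TPM lay under the value of Tox2. Among genes with a TPM above 0 in the same library, Tox stood at percentiles 54.9 to 61.2 in the knockout and 79.5 to 81.6 in the control. Tox3 stood at 80.8 to 87.3 in the knockout and 52.3 to 79.9 in the control.

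As a share of the summed TPM of the family, Tox made up 13.7% ± 0.85 in knockout and 35.1% ± 4.28 in control libraries, and Tox3 made up 47.2% ± 4.77 in the knockout and 21.7% ± 7.91 in the control. Tox4 held 31.6% ± 2.92 in the knockout and 35.1% ± 1.95 in the control, and Tox2 held 7.48% ± 2.30 and 7.99% ± 4.83 in knockout and control (SD, n = 4 each). The sum itself was 90.3 ± 25.2 TPM in knockout and 98.2 ± 22.9 TPM in control libraries, and overlapped between genotypes. The shares of Tox and of Tox3 did not overlap, whereas those of Tox4 (29.1% to 35.7% in the knockout, 33.7% to 38.0% in the control) and of Tox2 (5.47% to 10.3% in the knockout, 5.21% to 15.2% in the control) did. The share of Tox restates the difference that chose the family, and the share of Tox3 is taken of a total that includes Tox. A lower Tox thus raises the share of Tox3 at an unchanged level of Tox3. The ratio of Tox3 to Tox ran from 2.90 to 3.76 in the knockout and from 0.276 to 0.918 in the control. These ratios hold the difference that chose the family and are given with no test. The ratio of Tox3 to Tox4, which leaves Tox out, ran from 1.12 to 1.74 in the knockout and from 0.310 to 0.853 in the control.

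**Figure D3:**
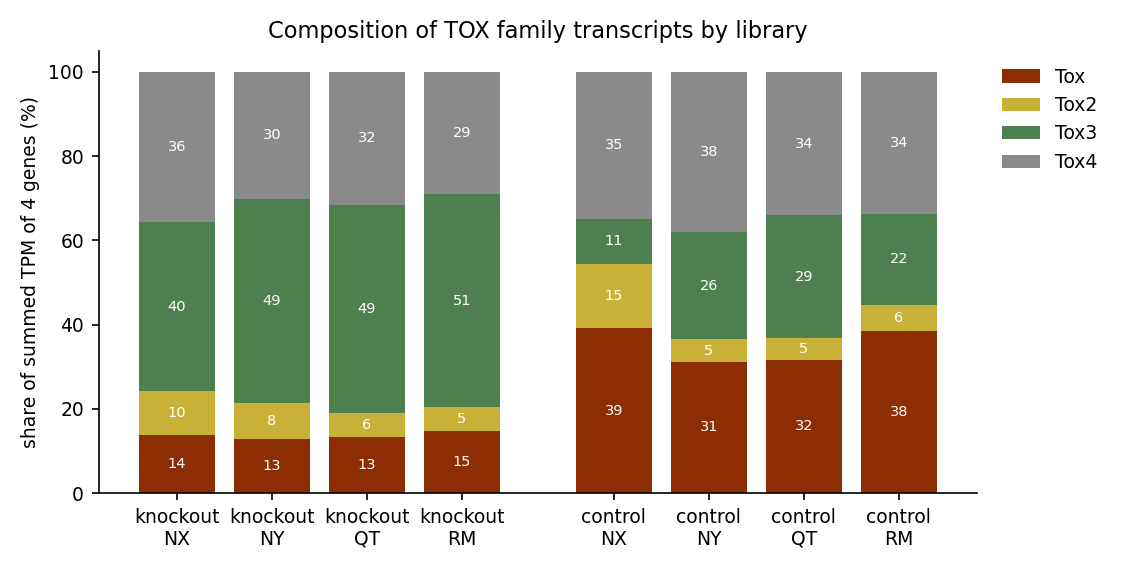
Share of each member in the summed TPM of Tox, Tox2, Tox3 and Tox4 in percent, 1 bar per library, knockout left and control right. Tox3 is the largest part of every knockout bar (40.1% to 50.6%) and Tox or Tox4 of every control bar.

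The mix of annotated transcripts, which the choice of the family did not use, was read from the gene length that RSEM weights by transcript abundance. Tox has 3 transcripts in the authors' annotation and a weighted length of 2804 ± 47.7 bases in knockout and 2774 ± 35.7 bases in control libraries (exact two-sided permutation test over 70 orders, p = 0.314, adjusted over 2 genes 0.629). Tox4 has 2 transcripts and a weighted length of 4268 ± 70.6 bases in knockout and 4245 ± 82.5 bases in control libraries (exact permutation p = 0.743, n = 4 each). Tox2 and Tox3 have 1 transcript each there, so no mix could be compared.

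The 41 other HMG-box genes listed for comparison, which include the SOX factors, the HMGB proteins and the TCF and LEF factors of Wnt signalling, showed no call. Of the 33 tested, 0 passed over all genes, where 0.0353% of all tested genes did, 19 were fitted higher and 14 lower, and 3 had an unadjusted p under 0.05 in edgeR, as did 3.62% of all tested genes. Their median log2 fold change was 0.06, against -0.01 over all tested genes. For 2 of the 33 every knockout library was above every control library (1.13% of all tested genes), and for 0 of them below (1.46%).

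These 2 genes were Sox5 and Sox9, named after their values were seen except that Sox5 had the smallest p of the list. Sox5, a SOX factor of the developing brain, had 114 (NX), 107 (NY), 159.7 (QT) and 139.9 CPM (RM) in the knockout, against 28.3, 76.7, 84.0 and 74.5 CPM in the control (log2 fold change 0.98, SE 0.30). Sox9, a factor of neural progenitors and glia, had 50.9, 57.0, 76.4 and 46.6 CPM in the knockout, against 5.70, 38.6, 36.0 and 19.1 CPM in the control (1.21, SE 0.45). Control NX was the lowest library for both, as it was for Tox3. The third gene with an unadjusted p under 0.05, Sox13, lay the other way, with 6.38 ± 2.86 CPM in knockout and 13.1 ± 3.88 CPM in control libraries, and its genotypes overlapped (-1.03, SE 0.40). None of the 3 was called (edgeR, adjusted p = 1.00 for each).

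In mouse T cells and cortical progenitors Tox is regulated by calcineurin and NFAT, a phosphatase and the factors it sends to the nucleus. Of the 14 genes listed for that pathway 12 were tested and 0 passed, where 0.0353% of all tested genes did. Of the 12, 6 were fitted higher and 6 lower, and the median log2 fold change was -0.04. Rcan2, a regulator of calcineurin with the smallest p, had 18.7 ± 6.73 CPM in knockout and 28.9 ± 18.3 CPM in control libraries (adjusted p = 1.00 in edgeR, n = 4 each). Of the 5 other PTW/PP1 genes, 0 passed, 3 were fitted higher and 2 lower, with a median of 0.08. Nothing is read from the 0 calls in these short lists, given the share over all tested genes. Ppp1r10, the scaffold that holds the complex together, had 51.0 ± 9.32 CPM in knockout and 69.6 ± 17.7 CPM in control libraries (log2 fold change -0.45, SE 0.23, adjusted p = 1.00 in edgeR).

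**Figure D4:**
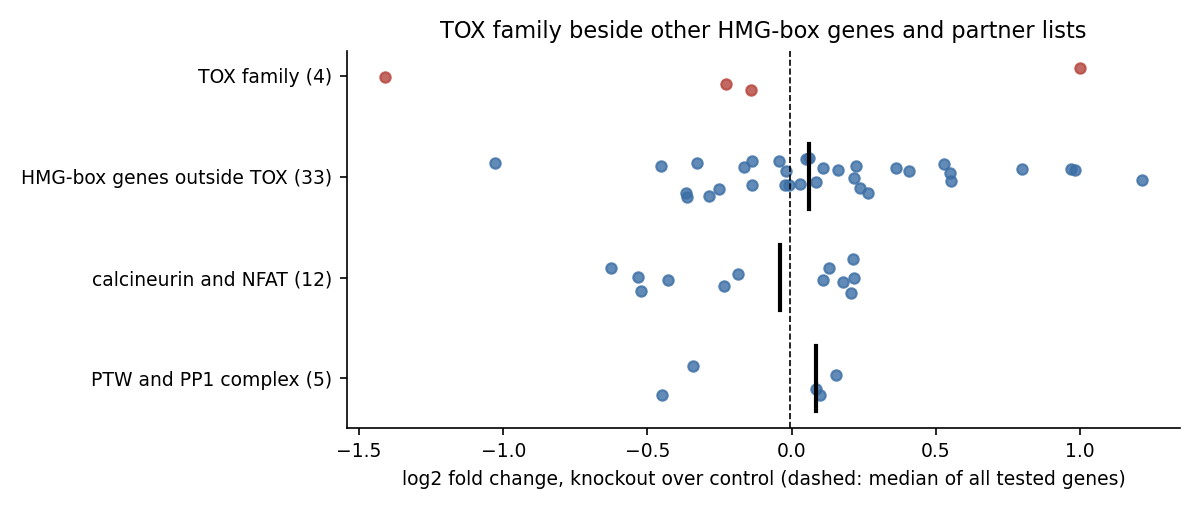
Log2 fold change, knockout over control, of the 4 TOX genes (red) and of the tested members of 3 lists (blue), with list medians as black bars and the median of all tested genes as a dashed line. Other HMG-box genes range from -1.03 to 1.21. Tox, at -1.41 below all of them, was chosen by this same contrast.

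T cells, the other cells in which TOX is best known, left little trace. Of 8 T cell markers 0 passed the filter on low counts, and Cd3e, Cd3g, Trac and Pdcd1 had 0 counts in all 8 libraries. The list summed to 1.50 to 4.87 CPM in knockout and 1.22 to 2.37 CPM in control libraries. Microglia markers summed to 9.06 to 54.7 CPM in knockout and 4.71 to 125.6 CPM in control libraries, vascular and meningeal markers to 1.02 to 8.82 and 0.124 to 30.2 CPM, and oligodendrocyte precursor markers to 2.79 to 53.1 and 0.558 to 58.0 CPM in knockout and control. Both NX libraries were low for these 3 lists. The difference of Tox in NX (-1.47 in log2 CPM) lay within the range of the other prefixes. The part of these cells in the Tox difference was not tested.

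**Figure D5:**
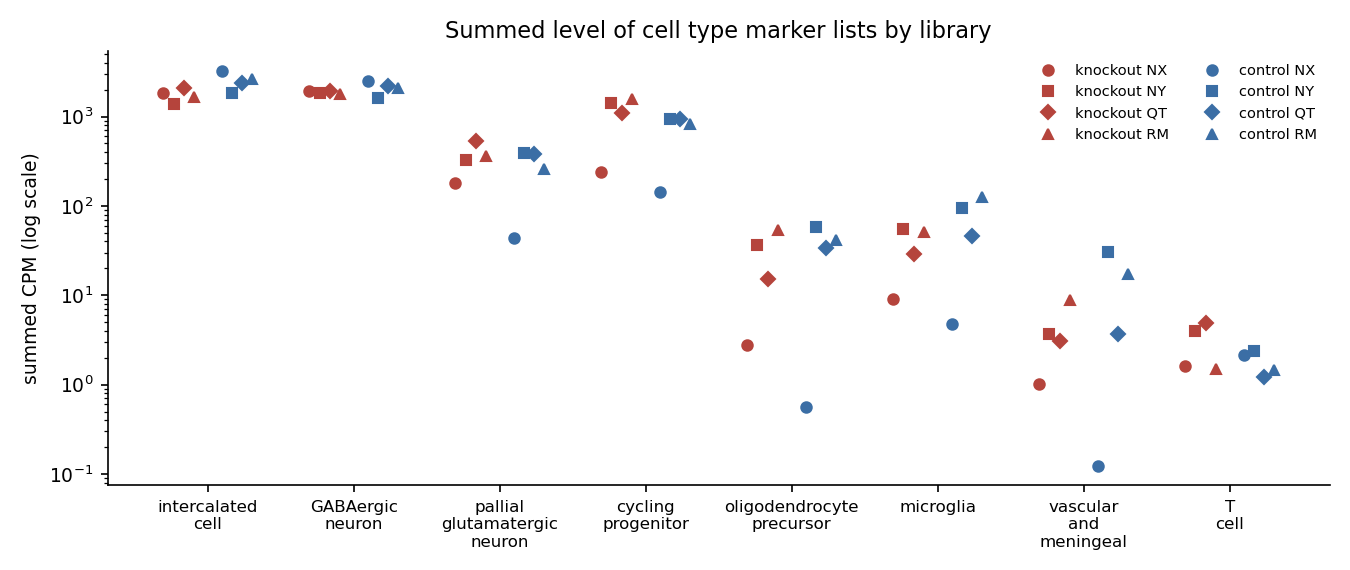
Summed CPM of 8 lists of cell type markers in each library on a log axis, knockout in red on the left and control in blue on the right of each list, with marker shapes for the title prefix. The NX libraries are the lowest of their genotype for pallial glutamatergic, progenitor, oligodendrocyte precursor, microglia and vascular markers. T cell markers lie under 5 CPM in every library.

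Genes whose levels most resembled each member were found by Pearson correlation of log2 CPM over the 8 libraries, among 9359 or 9360 genes whose average log2 CPM was 3 or more. For Tox they were Rbm20 (r = 0.966), Tle4 (0.955), Tshz1 (0.952), Foxp4 (0.949) and Rgs8 (0.948). With 2 groups of libraries that stand apart, such values mostly restate the gap between genotypes. After the genotype means were taken off, a different set came out, led by Rbm15b (0.970), Cerk (0.923) and Trim62 (0.910), and none of the first 5 was among its 5.

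For Tox3 the 4 most similar genes were Fam19a3 (0.975), Zbtb25 (0.967), Ing5 (0.955) and Sox9 (0.952). Fam19a3, a secreted brain peptide gene, had 43.8 ± 12.7 CPM in knockout and 10.2 ± 13.5 CPM in control libraries (n = 4 each). For Tox4 they were Magee1 (0.973), Uck2 (0.969), Foxk1 (0.962), Clip2 (0.950) and Atp5a1 (0.946), and for Tox2 Trmt10b (0.972), Klhdc2 (0.971), Rbm4b (0.969), Prps1 (0.965) and Dnajc25 (0.964). Between members, r was -0.772 for Tox and Tox3 over the 8 libraries and -0.133 after the genotype means were taken off. All these points share library and depth and are the highest of all genes compared, so they are descriptions.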

How the data were processed

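RNA was sequenced from sorted cell pools, 4 knockout and 4 control libraries. Trimmomatic 0.33, Bowtie2, RSEM 1.2.22 and the build mm10 are named in the submitters' processing notes; no annotation release is. The deposited values, per the file headers, are RSEM expected counts, TPM and FPKM (FPKM was not analysed), with gene lengths weighted by transcript abundance. The deposited matrices matched the sample files in 16 columns (largest difference 0).

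Expected counts were rounded and tested with edgeR 4.0.16 (R 4.3.3): filterByExpr left 14157 of 32543 genes, TMM factors, quasi-likelihood test with genotype as the single term, Benjamini-Hochberg over all tested genes, called under 0.05. SEs come from the quasi-likelihood F, and 95% limits use its degrees of freedom. Correlations used log2 CPM with a prior count of 2. Each library is a pool, and the labels do not say that pools are separate litters, so p-values measure the spread between pools. A floor of 3 counts is 0.186 to 0.545 CPM, for counting error only. Positions and sequences are from GENCODE M21 (GRCm38, the build called mm10), aligned with Biopython 1.88. The fit was tested on simulated data. The members, lists and tests were chosen with earlier results of these data known. Named genes are the members, for each the 5 most correlated genes (for Tox3 the first 4; 1 is not reported here), and of each list the called member or that with the smallest p. Alternatives changed scaling, filter, threshold, test (DESeq2 1.42.0, limma 3.58.1, robust fit), unit, prefix block and libraries used. The comparison of protein sequences was not run; coding sequences were compared instead, a choice made after the files were seen.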

Additional observations from a re-analysis of the deposited data

Results flagged for a closer look

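Tox in the knockout QT library, at 16.1 CPM, lay apart from the other 3 knockout libraries (18.4 to 18.6 CPM); its gap to the nearest was 0.899 of the range of the group. That library held 106 counts of Tox, so counting alone gives an error of 9.71%. Tox2 in the control NX library lay above the other controls in CPM (11.3, next 4.67), with a gap of 0.909 of the range of the group. In TPM the gap of the same library to the next control (6.33 TPM) was 0.830 of the range, only just past the critical value for 4 samples. The log2 fold change of Tox2 was 0.36 without that library, and 0.0024 with it kept and knockout RM left out, against -0.14 with all 8. Of 16 sets of 4 values examined (8 in CPM and the same 8 in TPM), 3 were singled out in this way, and chance gives about 1 in 20.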

How the results depend on the processing

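The log2 fold change of Tox kept its sign in 24 of 24 alternatives (-1.48 to -1.32), Tox3 in 24 (0.76 to 1.30) and Tox4 in 24 (-0.32 to -0.11), and neither Tox3 nor Tox4 was called in any of them. Tox2 changed sign in 4 of 24: it was 0.18 without both NX libraries, 0.50 without control NX and knockout QT (chosen after seeing the data), and -0.32 to 0.36 with single libraries left out. Shares of the family total stayed within 1 SD in 40 of 40 alternatives. Tox was called in 6 of 24 alternatives, with adjusted p from 1.25e-06 in DESeq2 to 0.716 without both QT libraries. Counts of genes and of family members called lower were 9 and 0 without composition factors, 3 and 0 without both NX libraries, 0 and 0 without both NY, QT or RM libraries and without control NX and knockout QT, 2 and 0 in the robust fit and limma-voom, and 10 and 0 with log2(TPM + 1). With log2(TPM + 0.1) 0 members were called. More genes were called without a low-count filter (19), in DESeq2 (39) and at a threshold of 0.1 (11), each with 1 member lower. Single libraries left out gave 0 to 5 genes and 0 members. Apart from the fewer samples in fits without libraries, the cause was not tested. A fit with the prefix as a replicate block called 28 genes (0.198% of those tested), including Tox (adjusted p = 0.0190), and Tox3 had a log2 fold change of 1.12 (adjusted p = 0.144). Deviations of libraries with the same prefix correlated at 0.385 (NX), 0.303 (NY), 0.066 (QT) and 0.450 (RM). Between different prefixes they correlated at -0.352 to 0.075, so NX, NY and RM lay above that range and QT within it. Because the labels leave the meaning of the prefix unstated, genotype was kept as the single term and the block as an alternative. Tox2 had the lowest depth, 22 to 183 counts per library, and a spread between libraries above its counting error.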
